A study of Mus musculus with 55 samples.

Results

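Transcription factors that are known from mesenchyme were followed through the bulk RNA-seq of mouse islets, namely Twist1, Twist2, Snai1, Snai2, Zeb1, Zeb2, Prrx1, Prrx2, Meox1 and Meox2. They were taken by name, through their Ensembl identifiers, and make up 10 of the 47937 genes in the count table. Of these 10, 9 passed the filter on low counts and were tested, and Prrx2 did not. The study deleted Eed, a core subunit of the Polycomb repressive complex PRC2, in mouse β cells and measured islet RNA in 16 libraries. Whole islets of male C57B6/J mice were isolated with collagenase, picked by hand and held in culture medium. There were 3 wild-type, 3 heterozygous and 3 Eed -/- libraries at 8 weeks of age, and 3 wild-type, 2 heterozygous and 2 Eed -/- libraries at 25 weeks. The Eed -/- animals, called βEedKO, were homozygous for Eed flox and carried RIP-cre (Tg(Ins2-cre)23Herr), whose insulin promoter drives Cre in β cells, so other islet cells keep Eed. Each library held the islets of 1 or 2 animals as a biological replicate, and those of at least 4 animals for βEedKO at 25 weeks. The labels give no cell type within the islet, and a difference between groups in RNA of whole islets can come from more cells of a type or from more RNA per cell, which cannot be told apart here.

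Mesenchymal cells are loosely connected cells that form connective tissue, bone, muscle walls and vessel support, and their identity is set in the embryo by transcription factors of the Twist, Prrx and Meox families. Snai and Zeb factors are repressors that silence epithelial adhesion genes such as Cdh1 when an epithelial cell turns into a migrating one, a process called epithelial-mesenchymal transition. In epithelial and endocrine cells many such developmental regulators are held silent by PRC2, which places H3K27me3, often on start sites that also carry the activating mark H3K4me3 and are then called bivalent.

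The promoters of Twist1 and Prrx1, whose RNA differed between βEedKO and wild-type islets, are shown first, because both lay in bivalent chromatin of wild-type islets but had unlike base composition. The letters come from RefSeq on GRCm38.p6 and run from 250 bases before to 50 bases after the start, 5′ to 3′ on the strand of the gene. Capitals mark CpG dinucleotides.
Twist1, chr12:33957421-33957720, plus strand: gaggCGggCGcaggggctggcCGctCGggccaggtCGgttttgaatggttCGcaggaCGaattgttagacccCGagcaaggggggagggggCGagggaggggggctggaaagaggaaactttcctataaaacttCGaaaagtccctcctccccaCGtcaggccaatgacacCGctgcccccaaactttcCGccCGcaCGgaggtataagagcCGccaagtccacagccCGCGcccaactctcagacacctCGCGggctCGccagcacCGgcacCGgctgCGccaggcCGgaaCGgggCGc
Prrx1, chr1:163313601-163313900, minus strand: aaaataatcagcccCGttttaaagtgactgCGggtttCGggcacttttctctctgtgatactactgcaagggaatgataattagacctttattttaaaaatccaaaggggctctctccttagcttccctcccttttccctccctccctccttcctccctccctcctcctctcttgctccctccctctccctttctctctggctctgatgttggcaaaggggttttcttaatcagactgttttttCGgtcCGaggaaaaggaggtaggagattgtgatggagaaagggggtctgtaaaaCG
The Twist1 window held 27 CpG dinucleotides and the Prrx1 window 6. Over the 32851 promoter windows of the same length the median was 7, with quartiles of 3 and 20, so Twist1 stood at the 84.5th percentile and Prrx1 at the 43.6th. GC content was 66.0% for Twist1 and 47.7% for Prrx1. Of the 10 genes, 7 had a window in the table, and Snai2, Zeb1 and Meox1 did not. Snai1 had the most CpG dinucleotides among them, 34, at the 92.3rd percentile. Twist2 held 25, Prrx2 28 and Meox2 12, and the 4 Zeb2 windows held 8 to 19.

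Snai and Zeb proteins bind the E-box CAGGTG, so this word was searched on both strands of the same windows. It occurred in 20.2% of all windows and, among the members, in the window of Snai1 alone, once, with its first base 126 bases before the start, in the reverse complement CACCTG, which is shown in capitals below. The absence of these letters from the other windows says nothing about the factors.
Snai1, chr2:167537945-167538244, plus strand: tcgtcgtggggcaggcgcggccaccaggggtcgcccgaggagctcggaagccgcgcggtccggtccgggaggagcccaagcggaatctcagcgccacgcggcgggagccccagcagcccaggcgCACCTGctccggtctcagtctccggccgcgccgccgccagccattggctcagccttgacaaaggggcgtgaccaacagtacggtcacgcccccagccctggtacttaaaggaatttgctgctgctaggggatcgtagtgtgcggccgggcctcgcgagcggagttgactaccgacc

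The chromatin at the start sites was read from the segmentation of wild-type islets, which gives every 200 bp of the autosomes 1 of 24 state letters and no measured level or replicate. At 7 of the 10 start sites the letter was L or M, which the study names as bivalent states, L high in H3K4me3 and M high in H3K27me3. Over all counted genes with a start site state, 7.58% started in L and 4.37% in M. Twist1 (ENSMUSG00000035799.5, chr12:33957671-33959829) started in L. Within 2 kb of its start 70.0% of the bases were in M and 30.0% in L, and M was also the leading state over the gene. Prrx1 (ENSMUSG00000026586.16, chr1:163245119-163313710) started in M, and 95% of the bases within 2 kb were in M. Twist2, Zeb2 and Meox2 started in L, with M on 85.0%, 80.1% and 60.01% of the surrounding bases, and Meox1 started in M with M on 65.7%. Around Snai1, which also started in L, the states were more mixed, with 45.0% in state K, 25.1% in the Polycomb state N and 19.995% in L.

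All 10 genes are protein coding, and the positions of the other members on GRCm38 follow. Twist2 (ENSMUSG00000007805.4) spans chr1:91801461-91848028 on the plus strand and Zeb2 (ENSMUSG00000026872.17) chr2:44983632-45117395 on the minus strand. Snai1 (ENSMUSG00000042821.7) spans chr2:167538195-167542814 and Snai2 (ENSMUSG00000022676.6) chr16:14705852-14709385, both on the plus strand. Prrx2 (ENSMUSG00000039476.13) spans chr2:30834972-30881251 on the plus strand, Meox1 (ENSMUSG00000001493.9) chr11:101877510-101894374 on the minus strand and Meox2 (ENSMUSG00000036144.6) chr12:37108540-37179534 on the plus strand, while Zeb1 (ENSMUSG00000024238.13) lies on chromosome 18. No 50-base word of exon sequence was shared between members. Words shared with other genes made up 45.7% of those of Twist2, 2.26% of those of Zeb2, 1.77% of those of Zeb1, 0.963% of those of Snai2 and 0.171% of those of Prrx1, and 0 for the other 5 genes.

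The remaining start sites differed. Zeb1 started in A, the state of active start sites, with the active states B and A on 35.0% and 26.5% of the bases within 2 kb. Snai2 also started in A, but L covered 39.99% of the bases within 2 kb, so that active states were a small part, and K and M covered 24.99% and 18.7%. Prrx2 has several annotated starts. Its outermost start lay in K, while the starts of its other transcripts lay in L, M and O. By coverage within 1 kb in place of the start itself, the letter was M for Twist2, K for Snai1, L for Snai2, B for Zeb1, M for Zeb2 and N for Prrx2, and the other 4 letters did not change.

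**Figure D1:**
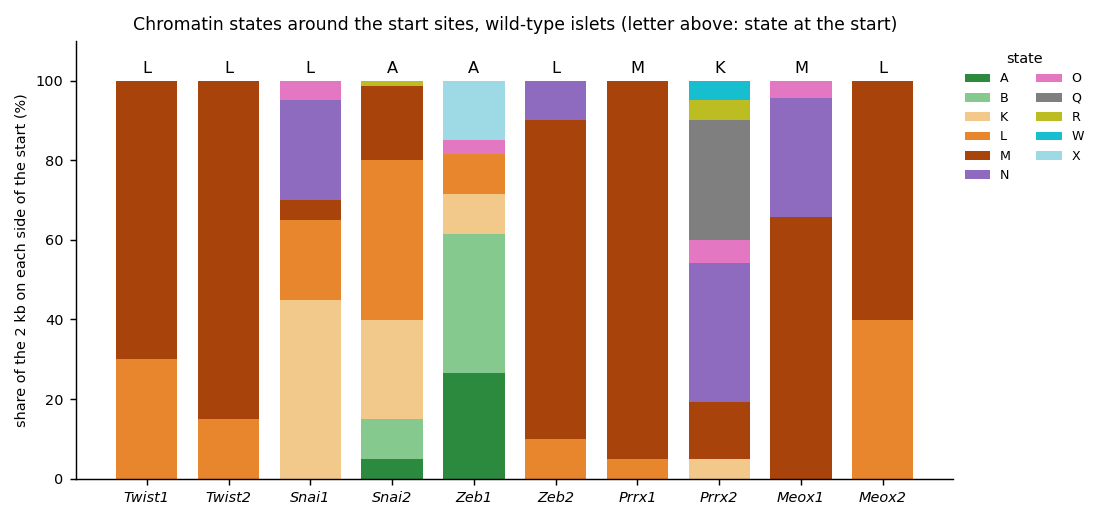
Share of each chromatin state (y axis, percent) within 2 kb on each side of the start site of the 10 genes (x axis) in the segmentation of wild-type islets, with the letter at the start itself above each bar. M covers 60.01% to 95% of the bases around Twist1, Twist2, Zeb2, Prrx1, Meox1 and Meox2, while Zeb1 has none and Snai2 18.7%.

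Total counts per library ranged from 4645393 to 22925359. Eed itself was at 29.4 ± 4.89 CPM (counts scaled to the effective library size, by TMM; SD, n = 3) in wild-type and 14.4 ± 0.813 CPM in βEedKO islets at 8 weeks, a log2 difference of -1.04 (adjusted p = 0.0881), and at 23.2 ± 4.66 and 14.9 ± 0.954 CPM at 25 weeks, a log2 difference of -0.69 (adjusted p = 0.142). All βEedKO libraries lay below all wild-type libraries at each age. The summed level of 8 mature β cell genes was 291 to 411 CPM in βEedKO islets at 25 weeks and 860 to 1810 CPM in the 14 other libraries. The summed level of 14 stromal markers (of fibroblasts, stellate cells and pericytes) was 488 to 620 CPM in βEedKO islets at 25 weeks, 222 to 386 CPM at 8 weeks and 171 to 297 CPM in wild-type islets, and heterozygous replicate 2 at 8 weeks stood apart from the other heterozygous libraries of its age with 446 CPM against 134 and 157 CPM. Interferon-induced genes were high in wild-type replicates 3 and 4 and βEedKO replicates 4 and 5 at 8 weeks (3439 to 5052 summed CPM) and at 71.0 to 157 CPM in every other library, so this split crosses the genotypes.

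Levels of different genes were compared as CPM per kb of exon. In wild-type islets at 8 weeks Meox1 was highest at 5.95 ± 1.90 CPM per kb, followed by Zeb1 at 2.33 ± 0.526, and the ranges of these 2 genes did not overlap. Snai2 followed at 0.914, Snai1 at 0.630 and Zeb2 at 0.421 CPM per kb, neighbours whose ranges overlapped. Meox2 and Prrx1 were at 0.143 and 0.140 CPM per kb, and Prrx2, Twist1 and Twist2 were at 0.0404 or below. In βEedKO islets at 25 weeks the order began with Twist1 at 10.1 ± 3.11 CPM per kb (n = 2), above the range of Meox1 at 3.07 ± 0.729. At 8 weeks Twist1 was second to Meox1, at 2.99 ± 0.964 against 9.36 ± 4.06 CPM per kb (n = 3).

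Twist1, a basic helix-loop-helix factor of cranial mesenchyme and mesoderm, rose in βEedKO islets at both ages. At 8 weeks it was at 4.18, 3.76 and 6.66 CPM in βEedKO replicates 1, 4 and 5, and at 0, 0.174 and 0 CPM in wild-type replicates 1, 3 and 4. At 25 weeks it was at 12.8 and 19.9 CPM in βEedKO replicates 2 and 3, and at 0.218, 0 and 0.387 CPM in wild-type replicates 2, 3 and 4. Every βEedKO library stood above every wild-type library, and the gene was close to silent in wild-type islets. In reads, βEedKO held 240 against 3 at 8 weeks, a ratio of 78.9 after scaling (95% interval 26.7 to 385, which covers counting error only), and 662 against 6 at 25 weeks, a ratio of 89.6 (41.0 to 245). The log2 fold change was 6.20 (SE 1.02, adjusted p = 0.0307) at 8 weeks and 6.27 (SE 1.010, adjusted p = 0.00503) at 25 weeks. Twist1 is one of the factors that the study picked from these same libraries for a transfection experiment, so its direction here is not independent evidence.

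The call at 25 weeks held under every alternative (adjusted p from 1.68e-11 to 0.0396). The call at 8 weeks was less firm. It passed with DESeq2 (adjusted p = 5.60e-08), but adjusted p was 0.325 with replicate numbers as a block, 0.0614 with all 16 libraries in the fit and 0.0793 with the heterozygous libraries added to the wild-type control, and it was over 0.05 when any 1 of 8 of the 11 libraries was left out (named with their values in the closing section). The log2 fold change stayed between 3.52 and 9.26 in all of these. The libraries with low interferon-induced genes (replicates 1) and those with high levels both showed the difference, at 4.18 against 0 CPM and at 3.76 and 6.66 against 0.174 and 0 CPM.

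Prrx1, a homeodomain factor of limb and craniofacial mesenchyme, rose at 25 weeks. It was at 11.0 and 8.72 CPM in βEedKO replicates 2 and 3 and at 1.74, 1.73 and 1.08 CPM in wild-type replicates 2, 3 and 4. Neither βEedKO library came near the wild-type range. The 360 reads in βEedKO against 45 in wild type gave a ratio of 6.5 (95% interval 4.76 to 9.07), and the log2 fold change was 2.65 (SE 0.38, adjusted p = 0.00347, and 1.47e-08 to 0.0468 over the alternatives). At 8 weeks it was at 1.61, 2.11 and 1.90 CPM in βEedKO replicates 1, 4 and 5 and at 1.52, 1.63 and 1.48 CPM in wild-type replicates 1, 3 and 4, ranges that overlapped, with a log2 difference of 0.28 (SE 0.34, adjusted p = 0.936).

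At 25 weeks Twist1 and Prrx1 were thus the 2 members called higher of 9 tested, and no member was called lower. Over all 18685 genes tested, 4.58% were called higher and 2.02% lower. At 8 weeks Twist1 was the 1 member called, against 0.428% of all genes called higher. By start site, 13.9% of the genes that started in L and 27.1% of those that started in M were called higher at 25 weeks, against 0.429% of those that started in A. Among the members 1 of 5 tested in L (Twist1), 1 of 2 in M (Prrx1) and 0 of 2 in A (Snai2 and Zeb1) were called, and the state M lay around the starts of 4 members that were not called, Twist2, Zeb2, Meox1 and Meox2. At 8 weeks the shares called higher were 1.83% in L and 2.55% in M.

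**Figure D2:**
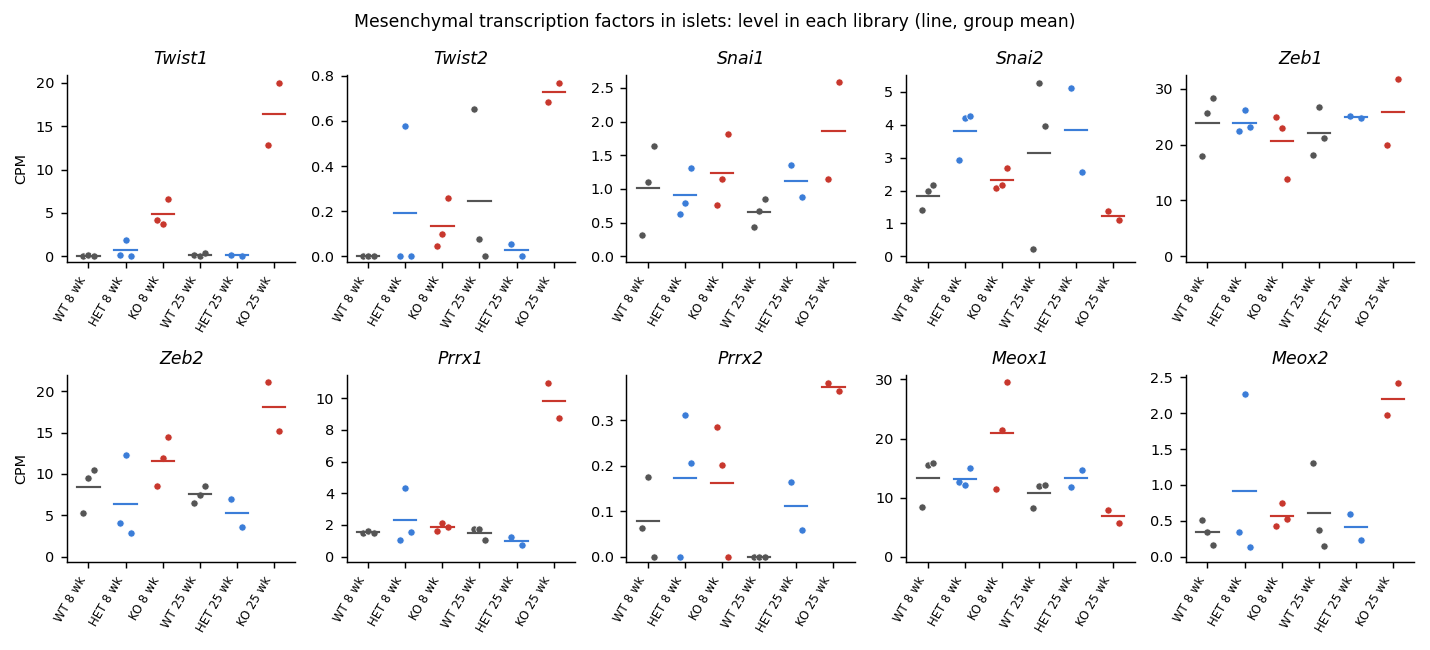
Level of each of the 10 genes (y axis, CPM, own scale per panel) in every library (points) of the 6 groups (x axis), with the group mean as a line (WT, wild type; HET, heterozygous; KO, βEedKO). Twist1 is above the wild-type libraries in the KO libraries of both ages, and Prrx1 in those at 25 weeks, at 8.72 and 11.0 CPM.

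Twist2, the close relative of Twist1 in dermis and bone, had few reads. It had 0 reads in the 3 wild-type libraries at 8 weeks and 6 in βEedKO (0.0474, 0.100 and 0.260 CPM), at least 1.97-fold higher against a floor of 3 reads over the group. At 25 weeks it was at 0.685 and 0.767 CPM in βEedKO and at 0.654, 0.0752 and 0 CPM in wild type, so the highest wild-type library lay just below the βEedKO libraries. The log2 difference was 1.96 (SE 1.36, adjusted p = 0.483). The words that its exons share lie in the antisense gene Gm29100, which had 29 reads in βEedKO and 0 in wild-type islets at 25 weeks. The library kit does not mark strand, so reads of Twist2 and Gm29100 cannot be told apart there.

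Snai1 and Snai2, zinc finger repressors of epithelial genes, did not pass the test at either age. Snai1 was at 1.14 and 2.58 CPM in βEedKO and at 0.436, 0.677 and 0.851 CPM in wild-type islets at 25 weeks, a log2 difference of 1.40 (SE 0.74, adjusted p = 0.329), and both βEedKO libraries lay above the wild-type range. At 8 weeks it was at 0.759, 1.15 and 1.82 CPM against 0.317, 1.10 and 1.64 CPM, which overlapped. Snai2 was at 1.37 and 1.09 CPM in βEedKO and at 0.218, 5.27 and 3.95 CPM in wild-type islets at 25 weeks, a log2 difference of -1.45 (SE 0.83, adjusted p = 0.373). Its lowest wild-type library, replicate 2, was the shallowest of all 16 and held 1 Snai2 read, and without it the log2 difference was -1.96 (adjusted p = 0.0398, against 0.0398 to 0.791 over all alternatives). At 8 weeks Snai2 was at 2.09, 2.16 and 2.68 CPM in βEedKO and 1.40, 1.98 and 2.17 CPM in wild type.

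Zeb1 and Zeb2, zinc finger and homeodomain repressors, differed in level and in chromatin. Zeb1 was at 20.01 and 31.6 CPM in βEedKO and 18.1, 26.8 and 21.2 CPM in wild-type islets at 25 weeks, and at 25.0, 22.9 and 13.9 CPM against 17.9, 25.6 and 28.3 CPM at 8 weeks. The groups overlapped at both ages, and the log2 differences were 0.17 (SE 0.33) and -0.22 (SE 0.29). Zeb2 was at 21.1 and 15.2 CPM in βEedKO and 6.54, 7.45 and 8.59 CPM in wild-type islets at 25 weeks. The groups did not overlap, and the log2 difference of 1.21 (SE 0.36) had an adjusted p of 0.0766, so it was not called. Over the alternatives this p ran from 0.0264 (DESeq2) to 0.382. At 8 weeks Zeb2 was at 8.49, 11.9 and 14.5 CPM against 5.27, 9.48 and 10.4 CPM, a log2 difference of 0.46 (SE 0.32, adjusted p = 0.828). Macrophages also express Zeb2, and the summed level of 10 macrophage markers was 202 to 527 CPM in βEedKO against 109 to 211 CPM in wild-type islets at 25 weeks, with Ptprc (log2 fold change 1.90, adjusted p = 0.0420) and Cd14 (2.38, adjusted p = 0.0391) called higher, neither of them with the replicate block (adjusted p = 0.127 and 0.0533). Of all genes 4.58% were called higher at that age. The part of macrophages in the Zeb2 level was not tested.

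Prrx2, the relative of Prrx1, was too low to be tested. It had 0 reads in the 3 wild-type libraries at 25 weeks and 14 in βEedKO (0.380 and 0.363 CPM), at least 3.79-fold higher. At 8 weeks it had 4 reads in wild-type and 10 in βEedKO islets, a ratio of 2.47 (95% interval 0.711 to 10.8), and the libraries overlapped.

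Meox1 and Meox2 are homeodomain factors of somites and their derivatives. Meox1, the most abundant member per kb in wild-type islets although its start lay in state M, was at 7.99 and 5.69 CPM in βEedKO and 8.28, 11.96 and 12.2 CPM in wild-type islets at 25 weeks, a log2 difference of -0.73 (SE 0.44, adjusted p = 0.407). At 8 weeks it was at 11.5, 21.5 and 29.6 CPM against 8.37, 15.6 and 15.8 CPM, a log2 difference of 0.65 (SE 0.38, adjusted p = 0.770). At that age the 4 libraries high in interferon-induced genes held 15.6 to 29.6 CPM of Meox1, and wild-type replicate 1 and βEedKO replicate 1, which were low in them, held 8.37 and 11.5 CPM. All libraries at 25 weeks were low in these genes, and their part in the Meox1 level was not tested. The βEedKO libraries lay below the wild-type libraries at 25 weeks, by a small gap, and overlapped them at 8 weeks. Meox2 was at 1.98 and 2.42 CPM in βEedKO and 1.31, 0.376 and 0.155 CPM in wild-type islets at 25 weeks, a log2 difference of 1.96 (SE 0.82, adjusted p = 0.207), and at 0.427, 0.752 and 0.519 CPM against 0.507, 0.349 and 0.159 CPM at 8 weeks. Here the βEedKO libraries lay above the wild-type libraries at 25 weeks and overlapped them at 8 weeks.

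Counted over the 9 tested members, 6 had all βEedKO libraries above all wild-type libraries at 25 weeks and 1 below, where 24.7% and 15.9% of all genes did so. At 8 weeks 2 lay above, against 6.54% of all genes. The median log2 fold change of the members tested was 1.40 at 25 weeks and 0.46 at 8 weeks, and that of all genes 0.03 and 0.004.

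**Figure D3:**
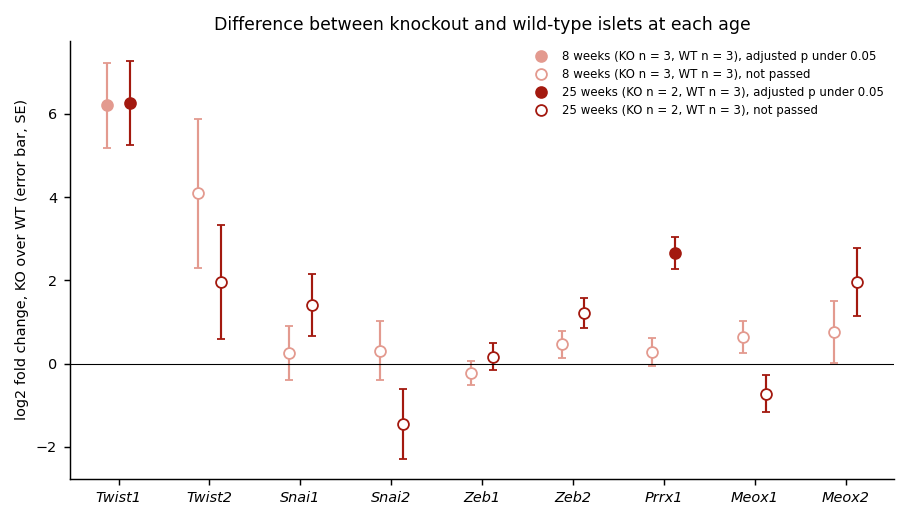
log2 fold change of βEedKO over wild-type islets (y axis; error bar, SE) for the 9 tested genes (x axis) at 8 weeks (light) and 25 weeks (dark), with filled points for an adjusted p under 0.05. Twist1 is filled at both ages, at 6.20 and 6.27, and Prrx1 at 25 weeks only, at 2.65.

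Whether the difference between βEedKO and wild type itself changed with age was tested in the same fit. No member was called (0.198% of all genes were). Of the members 2 (against 7.76% of all genes) had an unadjusted p under 0.05, Prrx1, whose difference was larger at 25 weeks by 2.37 on the log2 scale (SE 0.51, adjusted p = 0.128), and Meox1, whose difference was lower at 25 weeks by -1.37 (SE 0.59, adjusted p = 0.602) and whose 8-week levels moved with the interferon split given above. DESeq2 called 1 member, Prrx1 (adjusted p = 0.00292, against 0.00292 to 0.546 over all alternatives). For Twist1 the change was 0.06 (SE 1.54), from 3 and 6 wild-type reads at the 2 ages.

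Within βEedKO islets, Prrx1 was higher at 25 than at 8 weeks (log2 fold change 2.34, SE 0.37, adjusted p = 0.0161), the 1 member called, where 1.5% of all genes were called. In reads this was 360 against 98, a ratio of 5.09 after scaling (95% interval 4.06 to 6.44). The call was lost when βEedKO replicate 4 or 5 at 8 weeks or replicate 2 or 3 at 25 weeks was left out (adjusted p 0.0599, 0.0675, 0.162 and 0.0893). Of the 9 tested members, 5 had both libraries at 25 weeks above all 3 at 8 weeks and 2 below, against 17.3% and 11.3% of all genes. Twist1 was higher in both libraries at 25 weeks than in the 3 at 8 weeks, by 1.70 on the log2 scale (SE 0.79), but did not pass (adjusted p = 0.362), and Meox1 was below its range at 8 weeks with a log2 difference of -1.66 (SE 0.46, adjusted p = 0.124, and 0.0155 with DESeq2), where 2 of the 3 libraries at 8 weeks were high in interferon-induced genes. In wild-type islets no gene was called between the ages by edgeR (0.0% of all genes; 1898 or 10.2% had an unadjusted p under 0.05, and DESeq2 called 137 genes). Among the members Twist2 alone had an unadjusted p under 0.05, from 0 reads at 8 weeks and 4 at 25 weeks, and DESeq2 called 0 members.

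Heterozygous islets were compared with wild-type islets in a fit of all 16 libraries, and edgeR called no gene at either age (0.0% of 18828 genes; 2743 genes or 14.6% had an unadjusted p under 0.05 at 8 weeks and 210 or 1.12% at 25 weeks, and DESeq2 called 413 and 3). Of the members Twist1 and Twist2 had an unadjusted p under 0.05 at 8 weeks and none at 25 weeks, and DESeq2 called 0 members at both ages. The 3 heterozygous libraries at 8 weeks were low in interferon-induced genes (71.0 to 85.1 summed CPM), as was wild-type replicate 1. Wild-type replicates 3 and 4 were high. All 12 of these genes had an unadjusted p under 0.05, with a median log2 difference of -3.41. The part of this split in the other differences at 8 weeks was not tested. At 8 weeks Twist1 was at 0.209, 1.91 and 0.0689 CPM in heterozygous replicates 1, 2 and 3, and the log2 difference was 3.55 (SE 1.35, adjusted p = 0.285). Replicate 2, the library high in stromal markers, was also the highest heterozygous library of its age for Twist2 (0.577 CPM against 0 and 0), Zeb2 (12.3 against 4.04 and 2.89 CPM), Prrx1 (4.35 against 1.04 and 1.58 CPM) and Meox2 (2.26 against 0.348 and 0.138 CPM). Without it the log2 difference from wild type was 1.15 for Twist1 (adjusted p = 0.769, against 0.119 to 0.842 over all alternatives), and that of Prrx1 went from 0.60 to -0.23 and that of Meox2 from 1.47 to -0.45. Snai2 was at 2.93, 4.21 and 4.27 CPM in heterozygous islets at 8 weeks, above its 3 wild-type libraries of that age, with a log2 difference of 1.04 (SE 0.63, adjusted p = 0.438). Snai1 was at 1.36 and 0.875 CPM at 25 weeks, just above its wild-type range (log2 difference 0.72, SE 0.68). At 25 weeks Twist1 was at 0.218 and 0 CPM in heterozygous islets, within the wild-type range, and Prrx1 at 1.25 and 0.758 CPM.

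Because mesenchymal factors are also expressed by stromal cells that come with isolated islets, their level was set against the 14 stromal markers. Of these markers, 4 were called higher in βEedKO islets at 25 weeks, the platelet-derived growth factor receptor gene Pdgfra (log2 fold change 2.79, adjusted p = 0.0149, and 0.0906 with the replicate block), the matrix gene Dcn (1.89, adjusted p = 0.0352) and the collagen genes Col1a1 (1.84, adjusted p = 0.0478) and Col1a2 (1.51, adjusted p = 0.0466), and the median log2 fold change over the 14 was 1.66. Over all genes 4.58% were called higher at 25 weeks. None of the 14 was called at 8 weeks by edgeR, where 6 had an unadjusted p under 0.05, against 1470 of all 18685 genes, and the median was 0.93. All 14 had a mean above 0 in every group. The 4 called markers all started in M in wild-type islets, and the others in L, M, N or P. Of all tested genes that started in M, 27.1% were called higher at 25 weeks, so the summed level need not follow stromal cells alone. This was not tested.

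Per 1000 CPM of stromal markers, Twist1 was at 10.8, 12.1 and 30.0 CPM in βEedKO islets and at 0, 0.969 and 0 CPM in wild-type islets at 8 weeks, and at 20.6 and 40.8 CPM against 0.734, 0 and 2.00 CPM at 25 weeks. On this scale too all βEedKO libraries lay above all wild-type libraries. The mean stromal sum was 307 against 198 CPM at 8 weeks and 554 against 237 CPM at 25 weeks. With 3 and 6 wild-type reads of Twist1 at these ages, division by sums this close could not bring the groups together. The Twist1 ratio therefore says nothing about the source of its RNA. Prrx1 was at 17.7 and 17.9 CPM per 1000 CPM of stromal markers in βEedKO islets at 25 weeks and at 5.87, 7.81 and 5.60 in wild type, which did not overlap, while at 8 weeks it was at 4.18 to 8.57 against 6.28 to 9.04. This order of Prrx1 depends on which markers make up the divisor. Rgs5, a pericyte marker, made up 42.5% of the summed marker level in wild-type and 27.8% in βEedKO islets at 25 weeks, and Pdgfra rose by about as much as Prrx1. With Rgs5 left out of the sum, Prrx1 was at 24.0 and 25.3 CPM per 1000 CPM in βEedKO against 10.3, 13.6 and 9.69 in wild-type islets at 25 weeks. Per CPM of Pdgfra alone, Prrx1 was at 0.823 and 1.35 in βEedKO against 1.60, 0.920 and 1.00 in wild-type islets at 25 weeks, which overlapped, and at 0.519 to 1.13 against 2.80 to 4.00 at 8 weeks, where βEedKO lay below. Twist1 per CPM of Pdgfra was at 0.926 to 2.93 in βEedKO against 0 to 0.300 in wild-type islets at 8 weeks and at 0.960 and 3.09 against 0 to 0.357 at 25 weeks. Both other divisors were chosen after seeing the data. Pdgfra itself was low in wild-type islets, at 0.480 ± 0.100 CPM at 8 weeks and 1.35 ± 0.459 CPM at 25 weeks, so ratios to it are imprecise. For Zeb2 the groups overlapped at 25 weeks on this scale, at 34.0 and 31.2 against 22.0, 33.6 and 44.4. Heterozygous replicate 2, with its high stromal level, held 4.27 CPM of Twist1 per 1000 CPM. The part of stromal RNA in the Twist1 and Prrx1 levels was not tested.

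**Figure D4:**
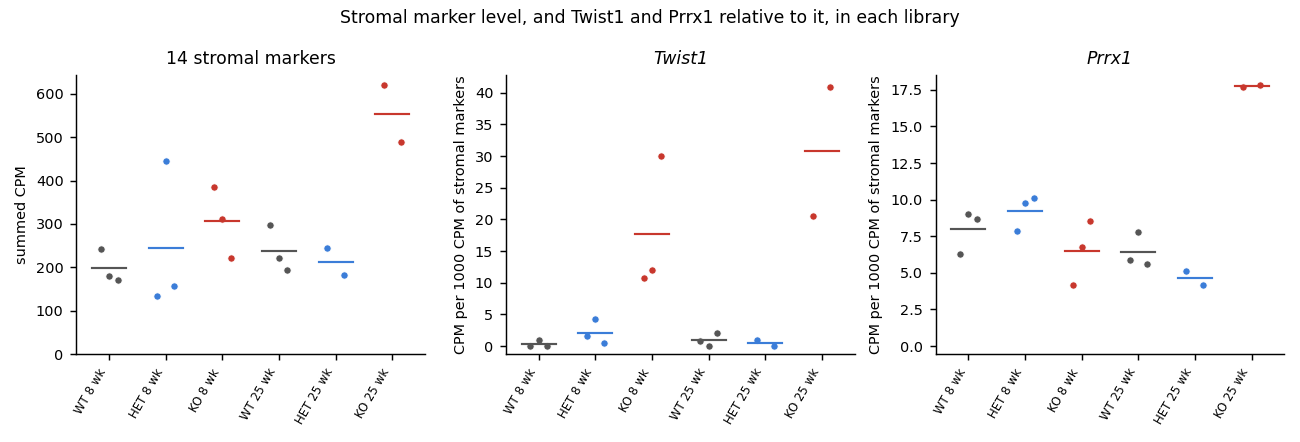
Summed CPM of 14 stromal markers (left), and CPM of Twist1 (middle) and Prrx1 (right) per 1000 CPM of these markers, in every library (points) of the 6 groups (x axis), with the group mean as a line. The markers are highest in the 25-week KO libraries (488 and 620 CPM), and per 1000 CPM of their sum Twist1 lies above wild type at both ages and Prrx1 at 25 weeks (17.7 and 17.9), while per CPM of Pdgfra alone, which is not drawn, Prrx1 overlaps wild type at 25 weeks.

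The genes that these factors are known to act with or on were counted in the same test. Of 16 epithelial adhesion and identity genes, the targets of Snai and Zeb repressors among them, none was called at 25 weeks by edgeR. There 1 had an unadjusted p under 0.05, against 3791 of all 18685 genes, and their median log2 fold change was 0.06. The keratin gene Krt8 was at 475 ± 330 CPM in βEedKO and 606 ± 454 CPM in wild-type islets at 25 weeks. The E-cadherin gene Cdh1 was at 288 ± 115 CPM in βEedKO and 313 ± 62.2 CPM in wild-type islets at 25 weeks (log2 difference -0.18, SE 0.54). At 8 weeks the summed level of the 16 genes followed the interferon split given above. It was 1558, 5309 and 5379 CPM in wild-type replicates 1, 3 and 4, and 1115, 4836 and 4408 CPM in βEedKO replicates 1, 4 and 5. These libraries enter the same fit, and the SE reached 1.05 for Krt8. The absence of calls therefore does not show that levels were equal. Of 12 genes listed for epithelial-mesenchymal transition 1 was called higher, the syndecan gene Sdc1 (log2 fold change 2.97, adjusted p = 0.00420). Epithelial cells also express Sdc1, and which cells its RNA came from was not tested. In the same list 1 was called lower, the N-cadherin gene Cdh2 (-1.05, adjusted p = 0.0466), which is a mesenchymal marker but also an adhesion gene of β cells. Of 12 TGF-β ligands, receptors and transducers 2 were called higher, the ligand gene Tgfb2 (1.66, adjusted p = 0.0346) and the receptor gene Tgfbr2 (1.32, adjusted p = 0.0235). Of 8 tested E protein, Id and Hand genes, whose products pair with or compete with Twist proteins, Id3 alone was called (1.54, adjusted p = 0.0230). Over all genes 4.58% were called higher and 2.02% lower at 25 weeks. The transition, TGF-β and Id lists had median log2 fold changes of 1.281, 1.115 and 0.786, against 0.03 for all genes. Above 0 lay 11 of 12, 9 of 12 and 7 of 8 genes, and 6, 4 and 3 had an unadjusted p under 0.05. The cell source of these differences was not tested. With the replicate block Cdh2 (adjusted p = 0.0530), Tgfb2 (0.100), Tgfbr2 (0.102) and Id3 (0.103) were not called, while 2 epithelial genes were, Ocln (log2 fold change 1.35, adjusted p = 0.0416) and Esrp1 (-0.96, adjusted p = 0.0321). At 8 weeks no gene of these 4 lists was called by edgeR, with 0, 3, 3 and 0 at an unadjusted p under 0.05, against 1470 of all 18685 genes.

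The genes next to the called members were looked up in the annotation. Next to Twist1 lie Ferd3l, another basic helix-loop-helix gene, and Hdac9. Ferd3l, which started in state M, had 42 reads in βEedKO and 0 in wild-type islets at 25 weeks, but its adjusted p was 0.0953, and Hdac9 was at 13.3 ± 0.140 against 6.73 ± 1.11 CPM (log2 difference 0.92, adjusted p = 0.174). Next to Prrx1, Gorab was at 17.2 ± 1.55 against 12.4 ± 2.14 CPM (log2 difference 0.42, adjusted p = 0.527) and Mroh9 had 0 reads in both groups. None of the 4 neighbours was called.

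The genes most like each called member were found by Pearson's correlation of log2 CPM over the 16 libraries, which share genotype, age and depth, so that r is a description. For Twist1 these were the homeobox gene Hoxd8 (r = 0.944), the zinc finger gene Zic1 (0.938) and the growth factor gene Gdf10 (0.935), which started in M, M and L. For Prrx1 they were the T-box genes Tbx15 (r = 0.944) and Tbx5 (0.935) and the kinase gene Camk2a (0.941), which all started in M. Their mean levels in βEedKO islets at 8 and 25 weeks were 4.19 and 25.6 CPM for Hoxd8, 1.66 and 30.0 CPM for Zic1 and 6.56 and 19.2 CPM for Gdf10, and for the genes like Prrx1 1.04 and 13.8 CPM for Tbx15, 0.0967 and 10.5 CPM for Tbx5 and 1.11 and 10.4 CPM for Camk2a. The genes most like Zeb1 and Meox1 were instead genes that started in A, with Paxbp1 first for Zeb1 (r = 0.878) and Rnf114 first for Meox1 (r = 0.911). For Zeb2 the first was the chemokine gene Ccl11 (r = 0.927), for Meox2 the matrix gene Ecm2 (r = 0.906), for Snai1 the cytokine gene Il10 (r = 0.860) and for Snai2 Tut1 (r = 0.907).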

How the data were processed

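RNA of whole mouse islets was sequenced in 16 libraries of 6 groups. The authors deposited a table of raw read counts by gene, made per the labels with TopHat2 2.0.13 on GRCm38 and featureCounts of Subread 1.5.0-p1. Counting by strand is not stated, and the kit does not mark strand. The authors also deposited a segmentation of wild-type islet chromatin as state letters in 200 bp bins. No count column went unused (0). ChIP-seq signal, single-cell and human data were not analysed here.

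The counts were tested with edgeR 4.0.16 under R 4.3.3 (quasi-likelihood test, TMM factors, filterByExpr by group, Benjamini-Hochberg adjustment over all genes tested), limma 3.58.1 and DESeq2 1.42.0. Wild-type and βEedKO libraries (11) entered 1 fit of 18685 genes, all 16 a second of 18828. Genes with an adjusted p under 0.05 were called. The common biological coefficient of variation was 0.456. Positions and start sites came from a GRCm38 GENCODE annotation that matched 47310 of 47937 identifiers. A start site is the 5′ end of the gene. Ratios of reads use total scaled depth, with exact 95% intervals, and floors use 3 reads over a group, both for counting error only. Depth was 4645393 to 22925359 reads per library.

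The members and gene lists were chosen with earlier results of these data known. Named genes are the members, per list up to 4 called genes with the largest change at 25 weeks (or the 2 most abundant), 3 genes most like each member with at least 1 CPM, the neighbours of called members, and Eed. Rgs5, Foxf1, Shox2, Ocln and Esrp1 were named after their values were seen. Another gene that the rule names is left out of the text. Alternatives were scaling, filter, tool, control, block, leaving out libraries and, added after seeing the data, other stromal divisors.

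No source ties a replicate number to a litter or batch. At each age, same-numbered wild-type and βEedKO libraries shared part of their deviation from the group mean (correlations 0.457 and 0.163 at 8 weeks, 0.176 and 0.255 at 25 weeks), while other pairs ranged from -0.528 to 0.450. The numbers were therefore treated as pairs and the blocked value is given where it changes a call. Libraries are biological replicates of different animals per the study's methods, some of them pools, which average over animals. No libraries of a group were 1 library deposited again, since their counts differed by far more than sampling noise (chi-square over degrees of freedom 31.0 to 592).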

Additional observations from a re-analysis of the deposited data

How the results depend on the processing

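Of the members, Twist1 and Prrx1 were called at 25 weeks under every alternative. Leaving out 1 library gave 2 to 3 members called at 25 weeks, 0 to 1 at 8 weeks and 0 to 2 between the ages in βEedKO islets, and 392 to 1609 genes called in all at 25 weeks and 18 to 135 at 8 weeks. At 8 weeks the Twist1 call was lost without wild-type replicate 1 (adjusted p = 0.0769), 3 (0.0582) or 4 (0.151) or βEedKO replicate 4 (0.0687) or 5 (0.0969). It was also lost without 25-week libraries that enter the shared spread, wild-type replicate 2 (0.0516) and βEedKO replicates 2 (0.0706) and 3 (0.0774). There 0 members were called with all 16 libraries, with heterozygous libraries added to the control (the pooled control), or with the replicate block. In the change with age 1 member, Prrx1, was called with the pooled control and with DESeq2, and DESeq2 called 2 between the ages in βEedKO islets.

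All genes called at 25 weeks were 2649 with the pooled control and 2088 with DESeq2, and at 8 weeks 503 with the pooled control, 137 with no filter, 393 with DESeq2 and 0 with the replicate block (1027 at 25 weeks). The blocked fit draws nothing from libraries without a partner. The block, with replicate numbers as pairs, changed no member's call other than that of Twist1 at 8 weeks. Calls of other named genes that it changed are given beside them. For heterozygous against wild-type libraries, whose same-numbered libraries correlated at 0.161, 0.0800 and 0.0923, the replicate block gave 0 members called.

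Direction turned only in differences that were not called. At 8 weeks with the pooled control Snai2 went to -0.29, Prrx1 to -0.054 and Meox2 to -0.17, with the block Zeb1 went to 0.089 and, in heterozygous islets, Prrx1 to -0.25 and Meox2 to -0.52. Without 1 library Zeb1 at 25 weeks ranged from -0.19 to 0.44, Snai1 at 8 weeks from -0.18 to 0.78, and in heterozygous islets Prrx1 from -0.23 to 0.95 and Meox2 from -0.45 to 1.89. The causes were not tested. With library size alone the median log2 fold change of all genes was 0.27 at 25 weeks and 0.20 at 8 weeks, and no member's direction changed. The start site count was 7 members in L or M, also 7 by coverage within 1 kb, and 7 by the starts of most annotated transcripts. Relative to stromal markers, the log2 ratio of Prrx1 in βEedKO over wild-type islets at 25 weeks was 1.47, 1.14 without Rgs5 in the sum and -0.11 per Pdgfra alone, and at 8 weeks it was -0.30 and, per Pdgfra, -2.11. Depth limits Twist2 and Prrx2, with under 30 reads in any group, and the ratios per Pdgfra, which was low in wild-type islets.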

Other observations

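Other transcription factors of mesenchyme and mesoderm were counted in the same way. Of 22 listed and tested, 11 were called higher in βEedKO islets at 25 weeks and none lower, against 4.58% and 2.02% of all genes. Most of the 22 started in L or M, where 13.9% and 27.1% of all tested genes were called higher at 25 weeks. At 8 weeks 3 were called higher, against 0.428% of all genes. With the replicate block 5 were called at 25 weeks and 0 at 8 weeks. The list was chosen with earlier results of these data known. Among them the forkhead genes of gut mesenchyme Foxf1 and Foxf2 rose at 25 weeks, Foxf1 from 1.48 to 28.9 CPM (adjusted p = 0.000966) and Foxf2 from 0.153 to 7.08 CPM (adjusted p = 0.00397). The short stature homeobox gene Shox2 rose from 0.823 to 13.5 CPM at 25 weeks. At 8 weeks Foxf1 was at 1.81 CPM in wild-type and 9.06 CPM in βEedKO islets (adjusted p = 0.0463) and Shox2 at 1.20 and 6.06 CPM. The 8-week calls of Foxf1, Foxf2 and Shox2 were lost with the replicate block (adjusted p = 0.265, 0.402 and 0.325). The T-box genes Tbx15 and Tbx18 rose at 25 weeks, from 0.501 to 13.8 CPM and from 0.0251 to 5.91 CPM, and were at 1.04 and 0.0316 CPM in βEedKO islets at 8 weeks. The homeobox gene Alx1 had 0 reads in wild-type islets at both ages and was at 1.94 CPM in βEedKO islets at 25 weeks, a difference not called with the replicate block (adjusted p = 0.140).

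The 5 other factors that the study transfected together with Twist1 (Barx1, Hoxb7, Gata2, Pitx1 and Zic1) were all called higher at 25 weeks, and Zic1 at 8 weeks (not with the replicate block, adjusted p = 0.187), but they were picked on these libraries, so this is not independent evidence. Of 10 endothelial markers none was called by edgeR at 25 weeks (3 had an unadjusted p under 0.05, against 3791 of all 18685 genes). Of 9 lymphocyte markers Cd79a was called lower (log2 fold change -1.67, adjusted p = 0.0215), while the 8 others had a log2 difference above 0, none called, and the median over the 9 was 1.73. Of 7 duct markers Krt19 (not with the replicate block, adjusted p = 0.133), Spp1 and Sox9 were called higher, and none of 7 Schwann cell, 8 acinar, 12 interferon-induced or 4 PRC2 genes was called at that age, with 1, 0, 0 and 1 at an unadjusted p under 0.05. The acinar sum differed widely between βEedKO replicates 2 and 3 at that age, at 336270 and 10650 CPM. Of the 8 mature β cell genes 6 (7 with the replicate block) were called lower at 25 weeks, with Ucn3 at 10.8 CPM in βEedKO and 398 CPM in wild-type islets. Beside these counts, 4.58% of all genes were called higher and 2.02% lower at that age.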
